A study of Homo sapiens with 20 samples.

Results

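The 621 regions described here were RUNX1-bound in control cells and had a lower RUNX1 signal after PU.1 knockdown. They were chosen from 26642 RUNX1 peaks by their measured values: a mean of 20 or more CPM (counts in a peak per 1000000 in-peak reads of the same library) over the control libraries and a mean under 10 CPM over the knockdown libraries. They made up 2.33% of all peaks and were drawn from 18459 peaks that met the control threshold. Because these means were the ones selected on, the fall from control to knockdown is a description. Calls of knockdown against control at these peaks are given beside the share of all peaks called, with nothing read from them.

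RUNX1 was mapped by chromatin immunoprecipitation with sequencing (ChIP-seq) in THP-1 cells, a widely used human line grown from an acute monocytic leukemia. The control group carried an inducible scramble shRNA and the knockdown group an inducible shRNA against PU.1, and doxycycline was given to both. Each group had 6 RUNX1 libraries, made in 2 batches that held 3 control and 2 knockdown libraries and 3 control and 4 knockdown libraries. Each genotype was represented by its own transduced THP-1 population, so a difference between these populations and the level of PU.1 cannot be told apart, and the level of PU.1 itself was not measured by this assay. The study's methods describe replicates of the cell line that were immunoprecipitated and made into libraries separately. The labels do not name separate cultures, so p-values measure the spread between these libraries, which may be partly technical.

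RUNX1 is a DNA-binding protein of the RUNX family that acts with its cofactor CBFB at enhancers and promoters of blood cell genes. PU.1, encoded by SPI1, is an ETS-family factor needed for monocytes, macrophages and B cells, and it binds next to RUNX1 at many myeloid enhancers, among them those of cytokine receptor genes. ChIP-seq signal reports how often a factor was crosslinked at a site over a cell population, and by itself it does not report expression of a nearby gene.

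Promoters were read from the RefSeq promoter table (GRCh38.p14, 250 bases before to 50 bases after a start), which holds 79.07% of the protein-coding genes and in which 564 of the 621 peaks could be examined. In it, 10 windows at 9 of these peaks had at least 150 of their bases inside the peak (1.60% of the 564, against 20.9% of the 25276 peaks examined in all). They were searched on both strands for a RUNX core (TGTGGT or ACCACA) and an ETS core of the PU.1 type (GAGGAAG or CTTCCTC) (these do not overlap in the window that held both). A RUNX core was found in 2 of the 10 windows and an ETS core in 3, against 13.1% and 13.6% of 34796 distinct windows of the table, and in LCE3A the ETS core lay outside the peak. Only the window of P2RY14 held both, as did 1.64% of the windows of the table. The 250 bases before the start are given for P2RY14, as the window with both cores, for SIGLEC6, as the promoter with all 300 bases in the peak and the highest control mean, and for MIR4422HG, a microRNA host gene with 2 ETS cores. Capitals mark the cores. In P2RY14 (chr3:151278543-151278792, minus strand) the RUNX core began 153 bases before the start, and its ETS core began at base 42 after it, outside the stretch shown. In MIR4422HG (chr1:55217611-55217860, plus strand) the ETS cores began 135 and 111 bases before the start. In SIGLEC6 (chr19:51531671-51531920, minus strand) neither set of letters was found. A match is a description of letters, not evidence of binding at them.
P2RY14: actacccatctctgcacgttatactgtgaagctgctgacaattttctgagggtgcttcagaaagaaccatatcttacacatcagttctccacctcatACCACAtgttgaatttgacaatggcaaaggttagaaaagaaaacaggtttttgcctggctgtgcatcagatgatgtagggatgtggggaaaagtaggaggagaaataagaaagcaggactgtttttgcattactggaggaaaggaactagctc
MIR4422HG: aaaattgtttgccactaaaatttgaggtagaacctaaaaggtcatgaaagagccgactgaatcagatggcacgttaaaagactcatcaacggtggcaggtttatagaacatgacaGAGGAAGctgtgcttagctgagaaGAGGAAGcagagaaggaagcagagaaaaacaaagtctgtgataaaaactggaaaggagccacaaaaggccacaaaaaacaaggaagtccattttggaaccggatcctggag
SIGLEC6: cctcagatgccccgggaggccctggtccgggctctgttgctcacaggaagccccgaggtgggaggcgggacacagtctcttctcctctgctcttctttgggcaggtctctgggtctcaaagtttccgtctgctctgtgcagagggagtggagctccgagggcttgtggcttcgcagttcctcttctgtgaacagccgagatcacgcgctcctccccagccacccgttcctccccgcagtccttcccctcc

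The RUNX1 signal at the 621 peaks was moderate in control cells and low, but rarely absent, after PU.1 knockdown. The control mean ranged from 20.0003 to 52.9 CPM with a median of 24.5, and the knockdown mean from 1.31 to 9.996 CPM with a median of 7.65. The median peak was 3.46-fold lower in knockdown (2.07-fold to 17.2-fold), 204 peaks were over 4-fold lower and 89 over 5-fold lower. In every one of the 621 peaks reads remained after knockdown, at least 12 over the 6 libraries together and 64 in the median peak. The sites were thus reduced rather than free of reads, and the level of reads that an unspecific antibody gives there was not measured in the count table.

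Across libraries, the median over the 621 peaks was 22.5, 25.02, 25.9, 27.0, 25.5 and 25.8 CPM in control replicates 1 to 6. In knockdown replicates 1 to 6 it was 6.63, 7.30, 6.39, 7.84, 6.98 and 7.64 CPM. The medians of the groups did not overlap, and control replicate 1 was the lowest control library. Together the peaks held 1.65% ± 0.0986 (SD, n = 6) of the in-peak reads of control libraries and 0.459% ± 0.0232 (SD, n = 6) of those of knockdown libraries. Control libraries held 630247 to 1199004 in-peak reads and knockdown libraries 938745 to 1719840, so the median peak rested on 17 to 30 reads in a control library and 6 to 13 in a knockdown library. At this depth 2, 11 and 1 peaks had no read in knockdown replicates 1, 3 and 4, and every peak had a read in the other knockdown libraries. Because the values are relative to in-peak reads, a change of all RUNX1 binding would not be seen.

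**Figure D1:**
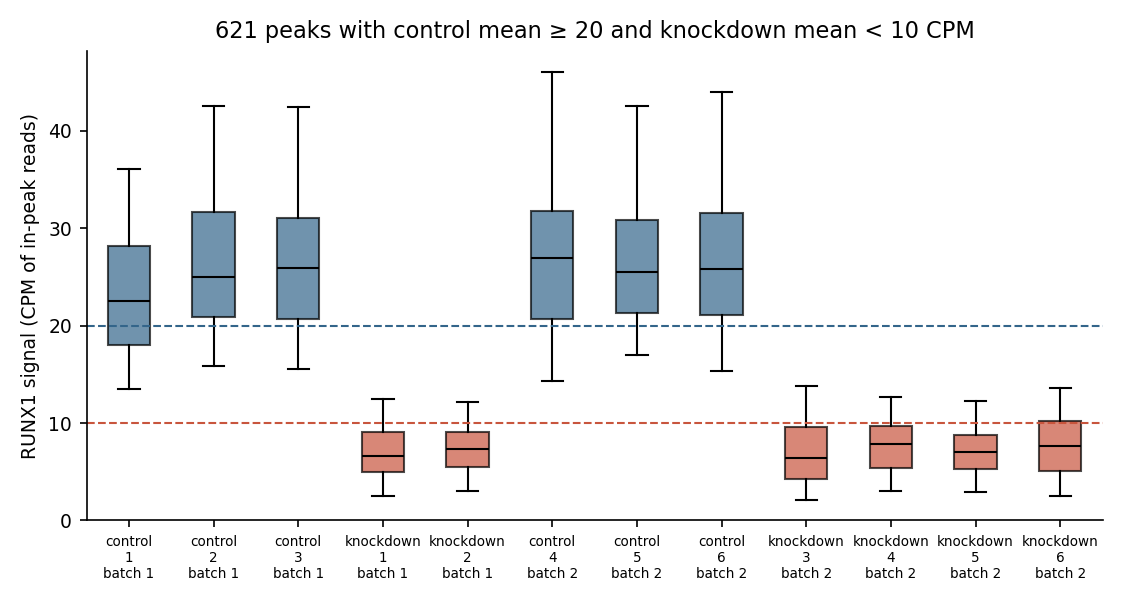
RUNX1 signal at the 621 peaks in each of the 12 libraries, in CPM of in-peak reads; boxes span the quartiles with the median as a line, whiskers the 5th to 95th percentile, and dashed lines mark the thresholds of 20 and 10 CPM. Library medians lay between 22.5 and 27.0 CPM in control and between 6.39 and 7.84 CPM in knockdown.

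In DESeq2 across all 26642 peaks with batch as a covariate, all 621 peaks were called lost (Benjamini-Hochberg adjusted p under 0.05, fold over 1.1), as were 20.7% of all peaks, and all 621 had a fitted loss over 2-fold, against 8.2% of all peaks. The 6 knockdown libraries all lay below the 6 control libraries in 559 of the 621 peaks (90.0%, against 10.8% of all peaks). Within each batch, they did so in both batches in 593 peaks (95.5%, against 13.4% of all peaks). These counts use the contrast that chose the peaks, so nothing is read from them. The fitted log2 fold change had a median of -1.83 and ran from -4.17 to -1.05, with a median standard error of 0.293.

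The thresholds cut through a continuous distribution. The control mean was under 22 CPM in 155 of the 621 peaks, and the knockdown mean was 9 CPM or more in 140. Just inside the control threshold were peaks near EFCAB11 (20.0003 CPM in control, 9.20 in knockdown) and CREB1 (20.0071 and 9.49), and just outside were peaks near ROBO2 (19.99 and 4.40) and SEMA4A (19.99 and 6.93). Just inside the knockdown threshold were peaks near VAMP1 (22.9 and 9.996), MRO (33.5 and 9.995) and BHMT (23.7 and 9.99), and just outside were peaks near NUDT12 (20.8 and 10.004), LPP (31.7 and 10.01) and SEPTIN9 (26.1 and 10.01). A further 182 peaks had 18 to 20 CPM in control with under 10 in knockdown, and 139 had 10 to 11 CPM in knockdown with 20 or more in control.

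Of the 10 peaks with the highest control mean, 7 overlapped a protein-coding gene. The first lay in CPVL, which encodes a serine carboxypeptidase made by monocytes and macrophages (chr7:29084642-29085332). It had 45.1, 53.3 and 58.5 CPM as the lowest, median and highest control library and 2.33, 3.91 and 10.3 CPM in knockdown. Its groups did not overlap, its means were 52.9 ± 5.54 and 4.79 ± 3.11 CPM (SD, n = 6 each), and it was 11.03-fold lower. The next lay 878611 bp from its nearest protein-coding gene NR2F2, an orphan nuclear receptor, with means of 50.4 ± 12.4 and 6.28 ± 2.99 CPM. ADGRB3, an adhesion G protein-coupled receptor gene, held a peak with 49.9 ± 12.7 CPM in control and 4.58 ± 2.31 CPM in knockdown. The other 7 lay in SV2C, FPR3, LRRK1, SH3GL2 and CDC42EP3 or near LY6L and SLC10A2, with control means of 45.5 to 47.9 CPM and knockdown means of 5.53 to 9.56 CPM.

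The 10 peaks with the lowest ratio of knockdown to control mean had control means of 20.1 to 52.9 CPM, and 2 of them were also among the 10 with the highest control mean (CPVL and ADGRB3). The lowest ratio was near FCN1, which encodes the secreted lectin M-ficolin of monocytes, and another peak near the same gene was also among the 10. The first of them (chr9:134928999-134929892, 11087 bp from the nearer end of the gene) had 13.4, 31.8 and 36.3 CPM as lowest, median and highest control value and 0.581, 1.44 and 3.40 CPM in knockdown. The second (chr9:134936625-134937230, 18713 bp away) had 22.8, 36.4 and 52.5 CPM in control and 0, 2.76 and 4.07 CPM in knockdown. Every knockdown library lay below every control library at both, and the mean was 17.2-fold and 15.5-fold lower, with fitted log2 fold changes of -4.17 ± 0.465 and -3.80 ± 0.380 (SE). These were the only RUNX1 peaks within 50 kb of FCN1.

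The peak 204811 bp from CADM1, a cell adhesion molecule gene, had a ratio between theirs (15.3, 20.7 and 27.7 CPM as lowest, median and highest control value, 0, 0.957 and 3.49 CPM in knockdown). A peak over the end of CEACAM3, a granulocyte receptor gene of a family of close paralogs, had 30.3 ± 7.41 CPM in control and 2.85 ± 1.93 CPM in knockdown. The remaining peaks of the 10 lay in ATP10A and SYNE1 or near PKHD1 and EID2 and were 9.96-fold to 13.1-fold lower. Knockdown means under 3 CPM were found in 9 of the 621 peaks, the level of a few reads per library.

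**Figure D2:**
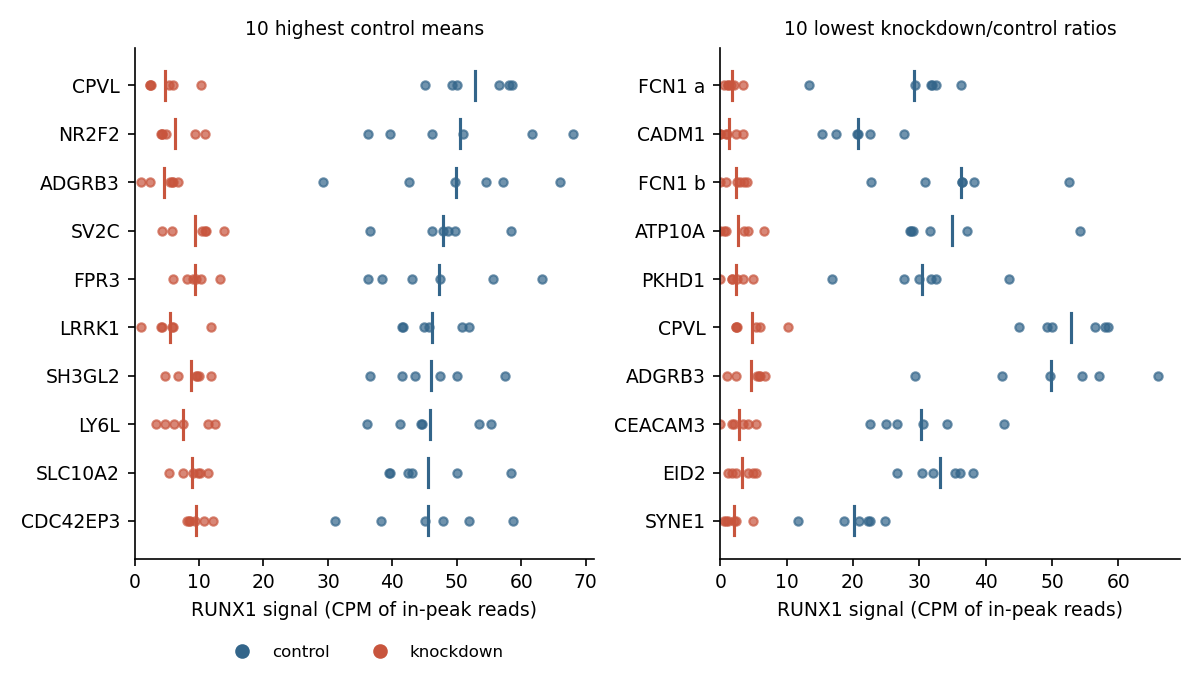
RUNX1 signal in CPM of in-peak reads at the 10 peaks with the highest control mean (left) and the 10 with the lowest ratio of knockdown to control mean (right), labelled with the nearest protein-coding gene; points are the 6 control (blue) and 6 knockdown (red) libraries and vertical bars their means. The 2 highest control means are those near CPVL (52.9 CPM) and NR2F2 (50.4 CPM), and the lowest ratio is that near FCN1.

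The loss was then followed over batches, with the thresholds applied to the libraries of 1 batch at a time. The list of peaks had already been filtered for reproducibility between batches, so signal in the other batch was not independent of the choice. How far that filter fixed the calls below was not tested. Applied to batch 1 alone, the thresholds chose 649 peaks, 464 of them among the 621. In batch 2, these 649 peaks had a median of 25.9 CPM in control and 8.57 CPM in knockdown, and the knockdown mean was lower in 646. DESeq2 within batch 2 called 579 of them (89.2%) lost, against 13.1% of all peaks. Applied to batch 2 alone, the thresholds chose 651 peaks, 513 of them among the 621. In batch 1, these had medians of 23.1 and 7.68 CPM, the knockdown mean was lower in 649, and DESeq2 called 414 (63.6%) lost, against 6.61% of all peaks. The batch 1 count rested on 2 knockdown libraries. It was 296, 171 and 175 without control replicates 1, 2 and 3 and 72 and 39 without knockdown replicates 1 and 2, fits in which a lone knockdown library is assumed to vary like the control libraries, and 574 with edgeR.

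The size of the loss was smaller in the batch that the thresholds had not used. For peaks chosen in batch 1, the median log2 fold change was -1.83 in batch 1 and -1.67 in batch 2, and for peaks chosen in batch 2 it was -1.84 in batch 2 and -1.68 in batch 1. The peaks that met both thresholds again are the same 370 in either direction by definition, 57.0% of the 649 and 56.8% of the 651. Peaks chosen with 1 library left out numbered 604 to 660, and in the library left out the share on the chosen side of the threshold ran from 59.2% in control replicate 1 to 81.8% in knockdown replicate 5. Those shares compare with 65.5% of all peaks at 20 CPM or more in control replicate 1 and 7.16% of all peaks under 10 CPM in knockdown replicate 5.

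Of the 621 peaks themselves, all were lower in knockdown in both batches and 588 were over 2-fold lower in both. The same 370 peaks (59.6% of the 621) met both thresholds in both. The smallest fold was 1.25 in batch 1 and 1.80 in batch 2, and the median fold 3.39 and 3.57. Called within 1 batch, 466 (75.04%) were lost in batch 1, against 6.61% of all peaks, and 609 (98.1%) in batch 2, against 13.1% of all peaks. These calls rest on values that chose the peaks, and nothing is read from them. Across the 621 peaks, the log2 ratios of the batches correlated with r = 0.513 (Pearson) and rho = 0.431 (Spearman), a description over peaks that share libraries and were restricted in range by the choice.

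**Figure D3:**
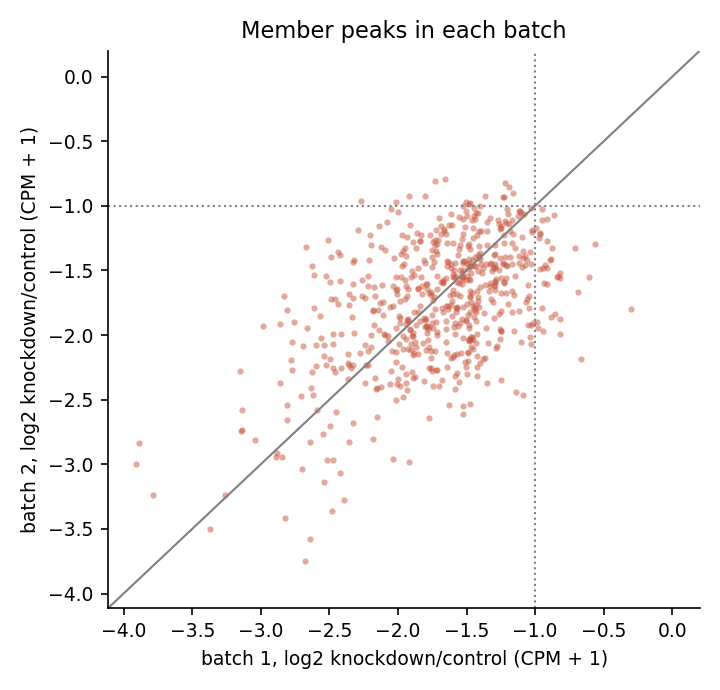
Log2 ratio of knockdown to control mean (CPM + 1) at the 621 peaks in batch 1 (3 control, 2 knockdown libraries) against batch 2 (3 control, 4 knockdown libraries); each point is a peak, the diagonal marks equal ratios and dotted lines a ratio of -1. All points lie below 0 in both batches, and r across peaks was 0.513.

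A difference between batches within a group was not selected on, but the thresholds limit how far batches can differ at these peaks. They also favor peaks with few knockdown reads, where such tests have little power. Lower shares among the 621 are therefore no independent check of agreement between batches. Within the control libraries, no peak of the 621 differed between batches in DESeq2 (adjusted p under 0.05, 0% of all peaks), and 4 did at an unadjusted p under 0.05 (0.644%, against 2.4998% of all peaks). With edgeR none of the 621 passed after adjustment, against 2 of all 26642 peaks, and 19 before it (3.06%, against 7.64% of all peaks). Within the knockdown libraries none of the 621 differed, against 0.0676% of all peaks (18 peaks), and 6 did at an unadjusted p under 0.05 (0.966%, against 5.56% of all peaks). With edgeR none of the 621 passed after adjustment, against 333 of all peaks (1.25%), and 30 before it (4.83%, against 12.4% of all peaks). The product of genotype and batch was past the adjusted threshold in none of the 621 and in 0% of all peaks, and past an unadjusted p of 0.05 in 12 (1.93%), against 2.51% of all peaks. In edgeR, 0 of the 621 and 0 of all peaks passed after adjustment, and 25 of the 621 (4.03%) before it, against 5.34% of all peaks. A test that misses the threshold does not show that the batches were equal.

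The 621 peaks lay mostly away from gene ends. Only 25 (4.03%, Wilson 95% interval 2.74% to 5.88%) were less than 1 kb from where a protein-coding gene begins or ends (a gene end), against 24.4% of all peaks and 28.1% of the 12414 other peaks in the same range of control means. The share within 5 kb was 14.7%, against 36.6% of all peaks. Over 50 kb from every such end lay 238 peaks (38.3%, interval 34.6% to 42.2%), against 23.3% of all peaks. The median distance to an end was 32618 bp, against 12522.5 bp over all peaks. A protein-coding gene was overlapped by 51.9% of the peaks, against 61.9% of all, and 35.4% lay outside every annotated gene, against 26.0%. Of the 564 peaks on chromosomes that the promoter table covers, 20 (3.55%) lay within 1 kb of a transcription start, against 24.6% of all such peaks.

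The peaks that moved the other way were also seldom near a gene end, but a smaller share of them lay far from one. The 481 peaks with under 10 CPM in control and 20 CPM or more in knockdown were within 1 kb of a protein-coding gene end in 4.78%. Over 50 kb away lay 29.9% of them (interval 26.0% to 34.2%), against 38.3% of the 621. Their median distance to an end was 24778 bp, against 32618 bp for the 621. Both sets were narrow, with a median width of 675 bp (interquartile range 605 to 778) for the 621 peaks and 657 bp for the 481, against 889 bp over all peaks and 966.5 bp for the other peaks in the same range of control means. None of the 621 peaks was 2 kb or wider, against 5.07% of all peaks. No test of these differences was made.

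**Figure D4:**
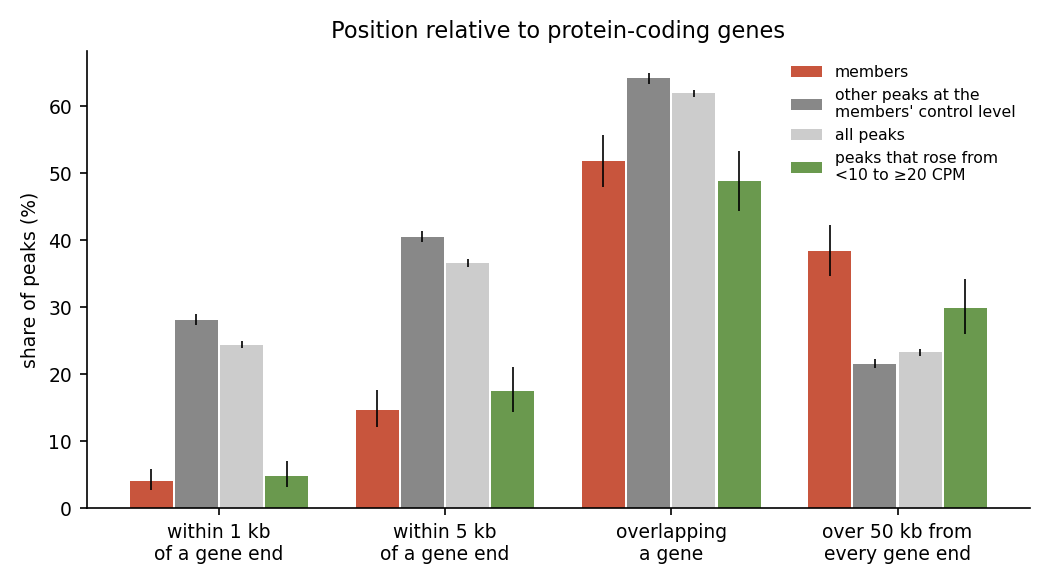
Share of peaks, in percent, by position relative to protein-coding genes for the 621 peaks (members, red), the other peaks in the same range of control means (dark gray), all peaks (light gray) and the 481 peaks that rose from under 10 to 20 CPM or more (green); error bars are Wilson 95% intervals of counting error. Within 1 kb of a gene end lay 4.03% of the 621 peaks and 24.4% of all peaks.

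The 5 peaks within 1 kb of a gene end with the highest control mean were those of FPR3, LCE3A, SIGLEC6, P2RY14 and FSCN3. FPR3 encodes a receptor of the formyl peptide family on monocytes, and its peak had 36.2, 45.2 and 63.2 CPM as the lowest, median and highest control value and 5.94, 9.36 and 13.3 CPM in knockdown. SIGLEC6 encodes a sialic acid-binding lectin receptor, and the peak over its start had 36.4, 40.9 and 44.6 CPM in control and 4.26, 7.97 and 9.65 CPM in knockdown, a narrow spread in both groups. The peak over the start of P2RY14, a receptor for UDP-sugars, was uneven in control, with 20.02, 27.7 and 61.9 CPM, and had 5.33, 8.50 and 15.8 CPM in knockdown. LCE3A, a gene of the skin barrier, had 43.4 ± 5.46 CPM in control and 9.82 ± 4.66 CPM in knockdown. FSCN3, a fascin gene, had 31.1 ± 5.57 and 3.23 ± 1.61 CPM.

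Within 50 kb of a gene end, 800 of the 16024 protein-coding genes that had any RUNX1 peak there (4.99%) had 1 of the 621 peaks. Among 15 lists of genes of myeloid and other functions, 37 of 378 such genes (9.79%) had one, through 34 of the 1322 peaks near genes of the lists (2.57%, against 1.87% of the peaks near any protein-coding gene). Of the 37 genes, 9 also had a gained peak within 50 kb, so 1 of the 621 peaks does not describe all RUNX1 peaks near a gene. The lists were chosen with earlier results of these data known, so their counts are a description.

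Receptors at the cell surface were read in 4 of the lists. Of the chemokine and chemoattractant receptors, 5 of 20 had 1 of the 621 peaks, through 6 of the 62 peaks near them. Besides FPR3 these were CX3CR1, CMKLR1, P2RY13 and PTAFR. CMKLR1, the chemerin receptor, had a single RUNX1 peak within 50 kb (chr12:108332567-108333513), with 23.4, 34.6 and 46.7 CPM as lowest, median and highest control value and 4.14, 6.39 and 7.84 CPM in knockdown, without overlap. At the peak 36704 bp from CX3CR1, the fractalkine receptor, the means were 38.1 ± 4.08 and 9.95 ± 4.0005 CPM (SD, n = 6 each). The peak counted for P2RY13 was the one over P2RY14.

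Of the pattern recognition receptors and adaptors, 3 of 31 genes had such a peak, through 2 of the 90 peaks near them (2.22%). That share is near the 1.87% of the peaks near any protein-coding gene, and is no result about these genes. CLEC5A, a C-type lectin receptor that signals through DAP12, had a single RUNX1 peak within 50 kb, with 38.998 ± 7.52 CPM in control and 7.68 ± 1.90 CPM in knockdown, and TLR1 and TLR6 shared a peak with 22.1 ± 6.12 and 9.60 ± 2.998 CPM. Of the cytokine receptors, 4 of 23 had one, through 3 of the 87 peaks near them (3.45%). CSF2RA and IL3RA, which encode the ligand-binding chains for GM-CSF and IL-3, shared a peak inside CSF2RA (chrX:1319990-1320831) with 27.2 ± 3.95 and 9.11 ± 2.24 CPM. The peak chrY:1319995-1320632, 20.0034 ± 2.99 and 8.21 ± 4.30 CPM, lies in the matching stretch of the other sex chromosome, where reads cannot be assigned to 1 copy, so these may be the same site counted under both names. The peak counted for TGFBR2 had 23.6 ± 4.43 and 6.96 ± 0.587 CPM. Among the 5 RUNX1 peaks within 50 kb of TGFBR2, 1 was called lost and 1 gained. The peak counted for IL6R lay in SHE, 23825 bp away, with 22.7 ± 7.98 and 7.12 ± 2.90 CPM. It was 1 of 16 RUNX1 peaks within 50 kb of IL6R, of which 4 were called lost and 4 gained. Of the SLAM, Siglec and other immunoglobulin-like receptors, 5 of 32 had one. SIRPA had 27.7 ± 4.02 and 8.59 ± 3.63 CPM, and SIGLEC1 had 23.2 ± 1.29 and 9.88 ± 2.22 CPM. SLAMF1 and CD48 shared a peak inside SLAMF1, 36785 bp from CD48, with 21.7 ± 5.13 and 8.86 ± 1.25 CPM. Another such peak lay inside CD48 itself (chr1:160708066-160708653), with 20.3 ± 5.18 and 5.15 ± 2.85 CPM. Its fitted log2 fold change was -2.12, against -1.35 at the shared peak.

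Of the Fc receptors, kinases and adaptors of immune receptor signaling, 4 of 27 genes had such a peak, through 5 of the 139 peaks near them (3.60%). They included the adaptor DOK2 with 41.2 ± 10.2 CPM in control and 7.51 ± 3.18 CPM in knockdown at the higher of its pair of peaks. The phospholipase PLCG2 had 26.4 ± 4.76 and 8.79 ± 3.52 CPM. The peak counted for the kinase BTK lay in GLA, 11946 bp away, with 20.8 ± 6.79 and 6.02 ± 1.88 CPM. Of 47 genes of myeloid transcription factors, 2 did, RUNX3, a paralog of RUNX1, and MITF. That is 4.26%, close to the 4.99% of protein-coding genes with any RUNX1 peak, and is no result about these genes. The peak 26484 bp from RUNX3 had 32.5, 34.5 and 42.5 CPM as lowest, median and highest control value and 6.39, 9.47 and 12.4 CPM in knockdown, and that near MITF had 26.1 ± 3.27 and 8.78 ± 2.61 CPM.

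Of the granule, lysosomal and antimicrobial proteins, 5 of 29 genes had such a peak, through 4 of the 99 peaks near them (4.04%). Besides FCN1, S100A8, S100A9 and S100A12, which encode calcium-binding alarmins of monocytes and neutrophils, shared a peak 2802 bp from S100A8 with 25.9, 30.2 and 42.8 CPM as lowest, median and highest control value and 5.10, 8.25 and 9.94 CPM in knockdown. Of the antigen presentation genes, 3 of 17 had one, through 2 of the 46 peaks near them (4.35%). HLA-DPA1 and HLA-DPB1 shared a peak with 39.9 ± 10.4 and 9.31 ± 3.37 CPM, and CIITA, the activator of MHC class II genes, had one with 21.9 ± 3.99 and 5.0002 ± 2.09 CPM. NCF1, a subunit of the phagocyte oxidase with near-identical pseudogenes, was the only one of 8 genes of its list, with 23.2 ± 6.77 and 9.14 ± 5.66 CPM. It was counted through 1 of 45 peaks (2.22%). CXCL16 and GSDMD were 2 of 26 cytokine, chemokine and inflammasome genes, counted through 2 of 94 peaks (2.13%). The shares of these last 2 lists are near the 1.87% of the peaks near any protein-coding gene, and are no result about these genes.

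No peak of the 621 lay within 50 kb of an end of the 23 integrin and adhesion genes, the 25 T and natural killer cell genes, the 18 erythroid and megakaryocyte genes or the 7 survival and autophagy genes named by the study, although 101, 59, 55 and 37 RUNX1 peaks lay there. The monocyte genes CD14, LYZ, CSF1R, ITGAM, FCGR1A and CD33 had 2 to 5 RUNX1 peaks each, 20 in all, and none of the 621. Since 1.87% of the peaks near any protein-coding gene were among the 621, few would be expected in any of these sets alone. The counts of 0 were not tested and are no result about these genes. Of the cytosolic ribosomal protein genes, which served as a list without a myeloid function, 3 of 45 had one (RPS3, RPS19 and RPL3). They did so through 3 of the 179 peaks near them (1.68%), near the 1.87%, so this too is no result about these genes. The peak counted for RPS19 was the one over the end of CEACAM3, 48695 bp away. At RPS3 the peak covered the start of the gene, with 24.7 ± 5.58 and 9.88 ± 3.34 CPM.

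MicroRNA genes within 10 kb of 1 of the 621 peaks numbered 7. How many lie this near to RUNX1 peaks in general was not counted, so the number is no result about these peaks. MIR223, which encodes a microRNA abundant in granulocytes and monocytes, lay 4779 bp from the peak chrX:66013195-66014091. That peak had 15.8, 23.9 and 42.5 CPM as lowest, median and highest control value and 3.20, 4.76 and 8.29 CPM in knockdown, without overlap, and means of 26.1 ± 9.36 and 5.07 ± 1.89 CPM. The mature sequence of its main arm is given because it identifies the nearby gene product, with the seed (bases 2 to 8) in capitals, from RefSeq. At 2346 bp from MIR139 the means were 20.7 and 9.14 CPM. The other 5 microRNA genes were MIR4422, MIR4708, MIR6837, MIR5692C2 and MIR4479, and the last lay in the peak over the start of TRAF2, where control replicate 1 had 39.4 CPM and the other 5 control libraries had a mean of 16.8 CPM, under the threshold.
hsa-miR-223-3p: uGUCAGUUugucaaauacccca

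The 621 peaks were isolated more often than RUNX1 peaks in general. Within 50 kb of its center, 216 (34.8%) had no other RUNX1 peak, against 21.5% of all peaks and 24.3% of the 481 peaks that rose. The median number of other peaks was 1, against 2 over all peaks. Another of the 621 lay within 50 kb of 32 (5.15%), against 3.28% of all peaks, and a gained peak within 50 kb of 117 (18.8%), against 34.0%. A lost peak lay nearby about as often (31.2%) as for all peaks (31.9%). Over the 841 other peaks within 50 kb, the median log2 change was -0.10 (-0.02 for all peaks), 24.97% were called lost and 17.5% gained, against 20.7% and 21.3% of all peaks. Within 10 kb, 201 such neighbors had a median of -0.11, and 31.3% were lost and 14.9% gained.

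Chained by gaps of up to 50 kb, 589 peaks stood alone and 32 formed 16 pairs, and no chain was longer. The pair with the highest summed control mean lay 1965 bp apart in MBTPS1, which encodes the site-1 protease, with 33.0 ± 10.0 and 35.8 ± 8.81 CPM in control and 9.43 ± 0.934 and 8.75 ± 3.36 CPM in knockdown. The others of the highest 6 lay near DOK2, FCN1, DAB2, the keratin-associated protein genes KRTAP4-7 and KRTAP4-9, and PTAFR. Near DAB2, an endocytic adaptor gene, the peaks lay 8179 bp apart with no other peak between them, and the means were 30.6 ± 3.58 and 34.2 ± 11.2 CPM in control and 6.43 ± 2.95 and 3.80 ± 1.08 CPM in knockdown. The KRTAP4 pair had 28.1 ± 8.23 and 31.9 ± 10.1 CPM in control and 3.42 ± 1.72 and 3.65 ± 2.001 CPM in knockdown, in a family of near-identical genes where reads may be shared between copies. Inside gene bodies, 308 genes held at least 1 of the 621 peaks and 13 held more, with 3 in MAF, a bZIP transcription factor gene singled out after the counts were seen. The same count was not made over all RUNX1 peaks, and gene length was not considered. These counts are thus no result about the genes.

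Of the 117 peaks with a gained peak within 50 kb, the 5 whose neighbor had the largest gain are described, without a test. In EPHB1, an ephrin receptor gene, the lost peak had 27.1 ± 9.28 CPM in control and 4.41 ± 2.98 CPM in knockdown, while a peak 26973 bp away had 10.6 ± 4.36 and 39.7 ± 8.36 CPM, a fitted log2 fold change of 1.85. In KCNH4, a potassium channel gene, the distance was 3192 bp, and the gained peak had 3.72 ± 2.14 and 14.8 ± 6.06 CPM, a fitted log2 fold change of 1.79. The remaining 3 pairs lay at FXYD5 and FXYD7, in MEGF11 and near LOC105375116, with fitted log2 fold changes of 1.97 to 2.30 at the gained peak.

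The share of RUNX1 peaks that belonged to the 621 differed between chromosomes. It was highest on chromosome 11 (41 of 907, 4.52%), chromosome 8 (57 of 1366, 4.17%) and chromosome 13 (22 of 593, 3.71%) among chromosomes with at least 100 peaks, and lowest on chromosome 22 (6 of 641, 0.936%) and chromosome 17 (13 of 1312, 0.991%). On chromosome 11 the other peaks also lay lower in knockdown, with a median log2 fold change of -0.26, and on chromosome 22 they lay higher, with a median of 0.14. The medians were -0.13 on chromosome 8, -0.00033 on chromosome 13 and 0.03 on chromosome 17. In windows of 10 Mb whose other peaks had a median of -0.2 or lower lay 63 of the 621 peaks (10.1%), against 5.40% of all peaks. Copy number in the transduced populations was not measured here, and the part of such regional shifts in the result was not tested. After each peak was centered on the median of its window, all 621 stayed over 1.5-fold lower and 614 stayed over 2-fold lower. The median log2 fold change was then -1.79. The choice required a fall over 2-fold, and window medians at the 621 ran only from -0.55 to 0.41. These counts were thus largely fixed by the choice, and nothing is read from them.

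**Figure D5:**
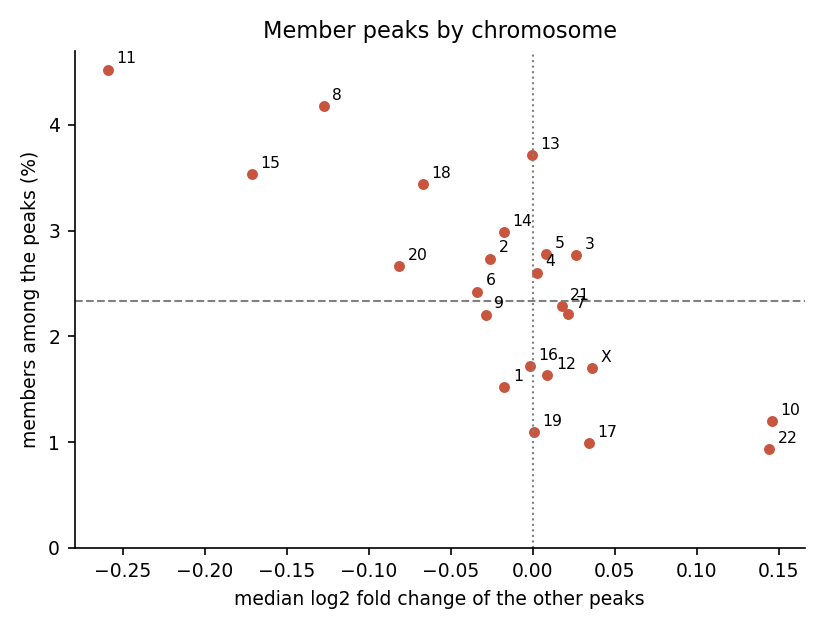
Share of the RUNX1 peaks of a chromosome that belong to the 621 (percent, y axis) against the median log2 fold change, knockdown over control, of the other peaks of that chromosome (x axis); each point is a chromosome with at least 100 peaks, the dashed line is the share over all peaks (2.33%) and the dotted line a log2 fold change of 0. Chromosome 11 has the highest share (4.52%) and the lowest median (-0.26).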

How the data were processed

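RUNX1 ChIP-seq of THP-1 cells was analysed in 12 libraries. The 8 IgG libraries were not analysed here. The study's methods state alignment with bowtie2, removal of duplicates, macs2 peak calls for each condition in each batch, a filter on reproducibility between batches, a union of the peaks of control and knockdown, and featureCounts over that union. The authors deposited raw counts per peak, and per the file headers the peak width as other information. Peaks were called on the libraries compared. The sources name a mouse and a human build. Human chromosomes are used, so positions were taken as GRCh38 and matched to RefSeq genes of GRCh38.p14, which gave no strand or exons.

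CPM are counts per 1000000 in-peak reads. Fits across all peaks used DESeq2 1.42.0 in R 4.3.3 (median-of-ratios size factors, batch as covariate, adjusted p under 0.05, fold over 1.1), with edgeR 4.0.16 as an alternative, after tests on simulated counts. Intervals cover counting error only. No 2 libraries of a group agreed within sampling noise (chi-square per degree of freedom 1.29 to 2.24). The peaks and gene lists were chosen with earlier results of these data known. Named peaks were the 10 highest control means, the 10 lowest ratios, up to 4 genes per list, up to 6 chains, 5 near gene ends, 3 on each side of each threshold and 5 beside gained peaks. Alternatives changed the scale, thresholds, tool, covariates, windows and libraries. The values of 1 gene of the lists are not reported here.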

Additional observations from a re-analysis of the deposited data

Results flagged for a closer look

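Libraries far from the other 5 of their group (by Dixon's ratio of the gap to the nearest library over the whole range, past its critical value, which chance gives in about 1 of 20 groups) were found in 12 of 140 groups of 6 examined, over 67 named peaks and 3 library summaries. Control replicate 1 held 1.45% of its in-peak reads in the 621 peaks, against 1.66% to 1.72% in the other control libraries. Without it, the thresholds chose 660 peaks, 605 of them among the 621.

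Single high control libraries were seen at the peaks near ATP10A (54.2 CPM, others 28.6 to 37.2), MBTPS1 (52.6, others 27.0 to 36.2), GUCY2D (31.7, others 16.9 to 21.8), S100A8 (42.8, others 25.9 to 31.5), P2RY14 (61.9, others 20.02 to 32.1), DAB2 (56.4, others 24.8 to 33.3) and TRAF2 (39.4, others 12.5 to 21.1). At the FCN1 peak with the lowest ratio, control replicate 6 was low at 13.4 CPM (others 29.3 to 36.3). In knockdown, replicate 3 was high at the peaks near GTF2IRD2 (20.2 CPM, others 4.25 to 8.29) and DOK2 (13.8, others 5.10 to 6.98), and replicate 1 was low at the peak near GLA (2.49, others 5.81 to 7.64). The GTF2IRD2 peak is the one counted for NCF1 and the GLA peak the one counted for BTK. Without the library in question, 9 of these 11 peaks still met the threshold of its group. The exceptions were GUCY2D, with a control mean of 19.7 CPM without replicate 4, and TRAF2, with 16.8 CPM without replicate 1.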

How the results depend on the processing

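DESeq2 size factors, TMM sizes, the median over libraries, autosomes only and leaving out single libraries gave 604 to 660 peaks, and the first 2 of these kept all 621. Stricter thresholds left 140 peaks (control of 30 CPM or more) and 72 (knockdown under 5 CPM). The number called lost was 621 with edgeR, column totals, no batch term and without each library, 242 when tested against a 2-fold change, and 12 of the 12 peaks that had at least 10 counts in every library, a filter that removes peaks low in knockdown. The choice of the peaks fixes these counts (20.7% of all peaks were called), so they show nothing about stability. With the replicate number as a block, 621 were called lost. The numbers do not pair the libraries: deviations of same-numbered libraries correlated between -0.059 and 0.17, over 0.1 in 1 of 6 pairs, and 4 of 12 libraries correlated best with their own number. Peaks chosen in batch 2 and called lost in batch 1 numbered 39 to 296 without single libraries, against 414, and 574 with edgeR, and those chosen in batch 1 and called lost in batch 2 numbered 476 to 606 over the alternatives. The share near a gene end was 14.7% for 5 kb and 9.82% for ends of all genes, and 3.55% for transcription starts. Genes of the lists with a peak numbered 14 for 10 kb and 53 for 100 kb, and the share with another of the 621 nearby was 2.25% and 9.02%. The median log2 change of neighbors was -0.063 after centering on windows. All 1140 values of 67 named peaks under alternatives kept direction and call, which the choice fixed too. Transcription starts, the opposite rule and the single-library readout were chosen after seeing the data. With 6 to 13 reads in the median peak of a knockdown library, differences among the low values were not detectable.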

Other observations

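Of the genes that held more than 1 of the 621 peaks in their body, MAF held 3 and COLEC12, ESR1, FMN1, GNAL, KCNQ3, MBTPS1, PAK1, PALM2AKAP2, PPP2R3A, RBMS3, SV2C and XKR9 held 2 each. These names were taken after the counts were seen. Without a count over all RUNX1 peaks or an account of gene length, they are no result about these genes. MAF encodes a bZIP transcription factor of macrophages and T cells, and its peaks lay 74291 to 148978 bp from the nearer end of the annotated gene. Their control means were 24.7 ± 5.08, 22.2 ± 3.85 and 22.2 ± 6.33 CPM, and their knockdown means 5.12 ± 2.04, 5.82 ± 2.02 and 8.80 ± 4.27 CPM (SD, n = 6 each). The libraries of the groups did not overlap at the first and second of them and overlapped at the last. ESR1, the estrogen receptor gene, held peaks with 29.0 ± 9.63 and 22.3 ± 5.51 CPM in control and 7.87 ± 3.84 and 4.64 ± 1.49 CPM in knockdown, without overlap.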
